A study of Mus musculus with 20 samples.

Results

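The genes described here encode the extracellular matrix and the enzymes and growth factor that act on it in fibrosis, the scarring of tissue. They were 35 genes chosen by symbol: 5 fibrillar collagens, 8 network and other collagens, 6 adhesive glycoproteins and laminins, 3 small proteoglycans and related proteins, 4 elastic fibre proteins, 3 crosslinking enzymes, 2 proteases, 3 protease inhibitors and Tgfb1. All 35 were found among the 34933 named genes of the deposited tables, and 35 of 35 passed the low-count filter, which kept 12789 genes. The rule that picks them uses the symbols alone.

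Fibrillar collagens form the tensile fibres of connective tissue, network collagens and laminins build basement membranes, and fibronectin, biglycan and lumican bind cells and growth factors to these scaffolds. In the liver most fibrillar collagen comes from stellate cells and portal fibroblasts, while hepatocytes make much of the fibronectin. TGF-beta drives matrix production, lysyl oxidases crosslink the fibres, metalloproteinases cut them and TIMPs inhibit those proteases.

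Livers were taken from wild-type mice with diet-induced obesity, and poly(A) RNA was sequenced from 20 livers. The 4 groups, of 5 mice each, received vehicle, rosuvastatin, geranylgeraniol (GGOH) or rosuvastatin with GGOH (called the combination here). Rosuvastatin is a statin that inhibits HMG-CoA reductase, and GGOH is an isoprenoid alcohol that cells can convert to geranylgeranyl diphosphate, a product of the pathway that statins inhibit. The diet, strain, age, sex, dose, duration and batches are not given in the sources used here, and the labels tell the mice of a group apart by number alone, so p-values measure the spread between these samples.

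Total estimated counts ran from 8548120 in combination mouse 3 to 18373913 per library, with a median of 15697884.5. Mitochondrial transcripts took 27.9% of the counts in combination mouse 2 and 29.2% in combination mouse 3, against at most 17.1% in the other 18 libraries. Hepatocyte markers were abundant in all groups, with a summed level from 26500 to 76000 TPM, a level scaled for transcript length and depth. Of 6 pancreatic acinar markers 4 were at 0 in all mice. Of 6 adipocyte markers only Lep was at 0 in all mice. The adipocyte list summed to between 9.38 and 55.2 TPM in single mice, and 2 of its markers passed the low-count filter. In bulk tissue, fewer cells of a type and less RNA per cell cannot be told apart.

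No matrix gene passed an adjusted p of 0.05 in any of the 6 comparisons made, and the matrix genes varied more between mice of the same group than between groups. The median share of a matrix gene's variance that lay between the 4 groups was 11.3%, against 15.6% over all genes tested. Within groups, the median SD of log2 CPM (counts scaled by library size and TMM factors) was 0.624 for the matrix genes and 0.392 for all genes. The summed level of the 35 genes averaged 271 ± 178 TPM (SD, n = 5) in vehicle mice, 259 ± 91.0 TPM in rosuvastatin mice, 216 ± 37.8 TPM in GGOH mice and 243 ± 58.9 TPM in combination mice. Single vehicle mice ran from 118 to 541 TPM, a range that held every other group's mice on this scale. In summed CPM the vehicle mice ran from 554.2 to 1548, and rosuvastatin mouse 1 lay below them at 538.7. Fn1 and Col18a1 were the largest parts of these sums. Without those genes the vehicle mice ran from 217.3 to 452.4 CPM, and rosuvastatin mouse 5 lay above them at 491.1 CPM.

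**Figure D1:**
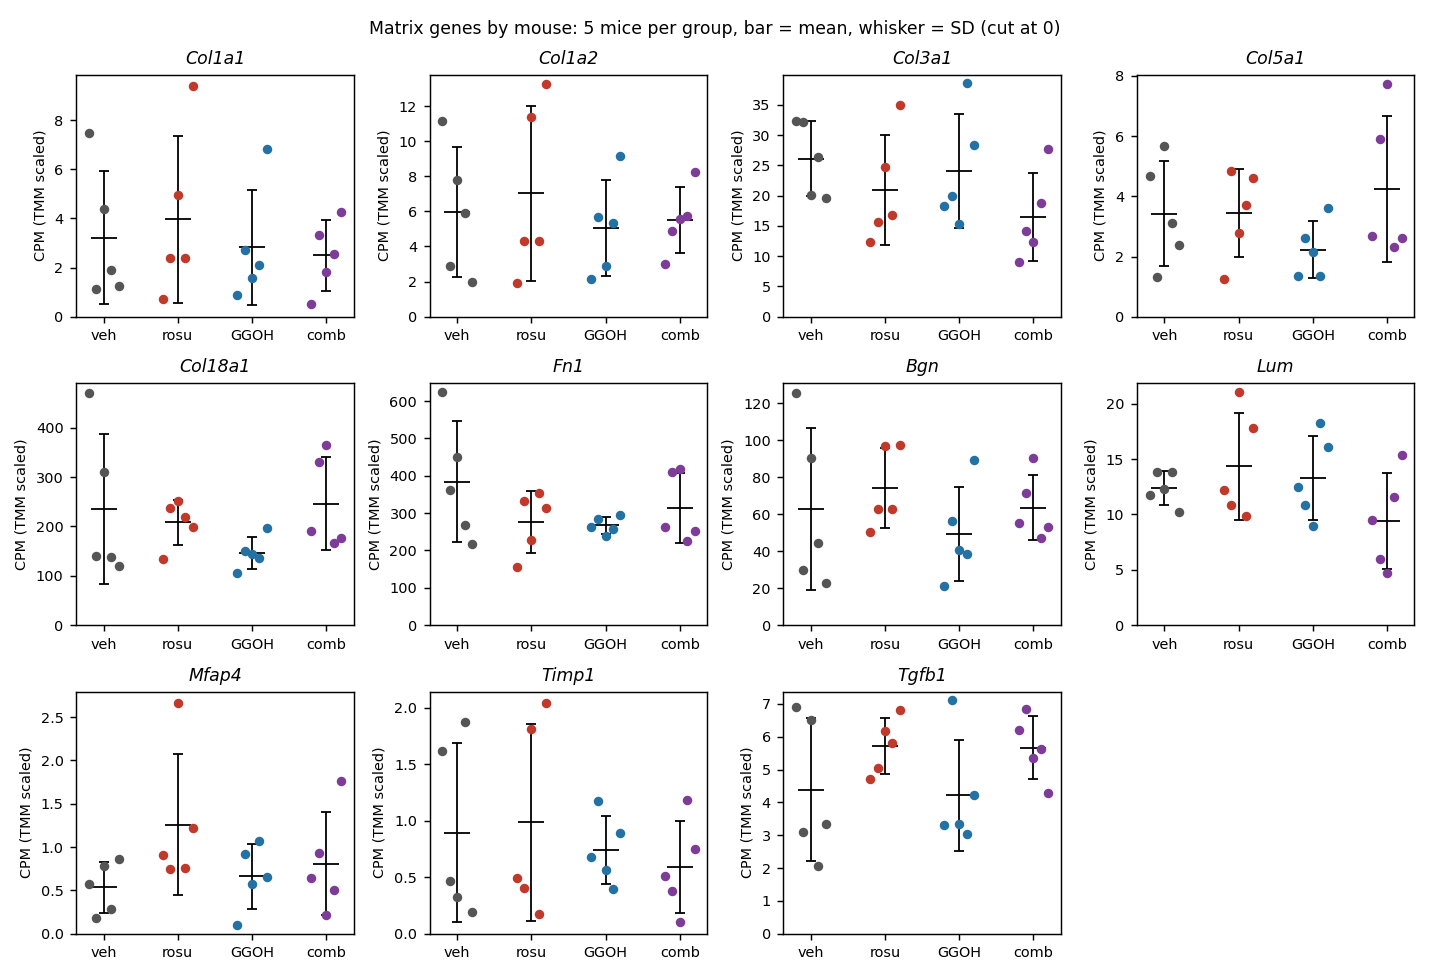
Level of 11 matrix genes in each mouse, in CPM scaled by TMM factors on linear axes starting at 0; points are mice 1 to 5 from left to right in each group, horizontal bars are group means and whiskers are the SD, drawn no lower than 0. The groups overlap for every gene, and vehicle mouse 1, rosuvastatin mouse 5 and GGOH mouse 5 are high for Col1a1, at 7.49, 9.41 and 6.83 CPM.

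Rosuvastatin was compared with vehicle to ask what the statin does in the obese liver, GGOH with vehicle to ask the same of the isoprenoid, and the combination with each of the other groups to ask what the compounds do together. These comparisons share groups of mice, so their results are not independent of each other. In edgeR's quasi-likelihood test with Benjamini-Hochberg adjustment, 0 of 35 matrix genes passed in each comparison, as did 0 of all 12789 genes (0%). DESeq2 and limma likewise called 0 matrix genes. At an unadjusted p under 0.05, 1 matrix gene was past the threshold for rosuvastatin against vehicle, where 3.69% of all genes were. The count was 0 for GGOH against vehicle (2.86% of all genes), 1 for the combination against rosuvastatin (1.69%), 1 for the combination against vehicle (5.5%), 2 for the combination against GGOH (14%) and 0 for the interaction of the compounds (2.89%). Counts of 1 in 35 and 2 in 35 are near or below these shares. The groups overlapped for all 35 genes in all 5 pairwise comparisons, while 0.516%, 0.43%, 0.266%, 0.758% and 2.26% of all genes had groups that did not overlap, in the order rosuvastatin and GGOH against vehicle, then the combination against rosuvastatin, vehicle and GGOH.

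The median log2 fold change of the 35 genes was 0.13 for rosuvastatin against vehicle, with 25 genes above 0, against a median of -0.02 over all genes, of which 47.3% were above 0. It was -0.11 for GGOH against vehicle, with 13 above 0, and -0.18 for the combination against rosuvastatin, with 11 above 0, against 46.9% and 52.6% of all genes. For the combination it was -0.00 against vehicle, with 15 above 0, and 0.10 against GGOH, with 20 above 0, where 50.8% and 50.9% of all genes were. For the interaction it was -0.11, with 16 above 0, against 52.3% of all genes. The median SE of a matrix gene's log2 fold change was 0.37 to 0.38 in the 5 pairwise comparisons and 0.53 for the interaction. That SE describes single genes and is not the error of a median over the 35 genes, which carries no test here. The genes move together across mice, so a median over them rests on few libraries: without rosuvastatin mouse 5 the value for rosuvastatin against vehicle was -0.08, and without vehicle mouse 1 it was 0.49. Likewise the value for GGOH against vehicle was 0.11 without vehicle mouse 1, and that for the combination against GGOH was -0.11 without combination mouse 5.

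**Figure D2:**
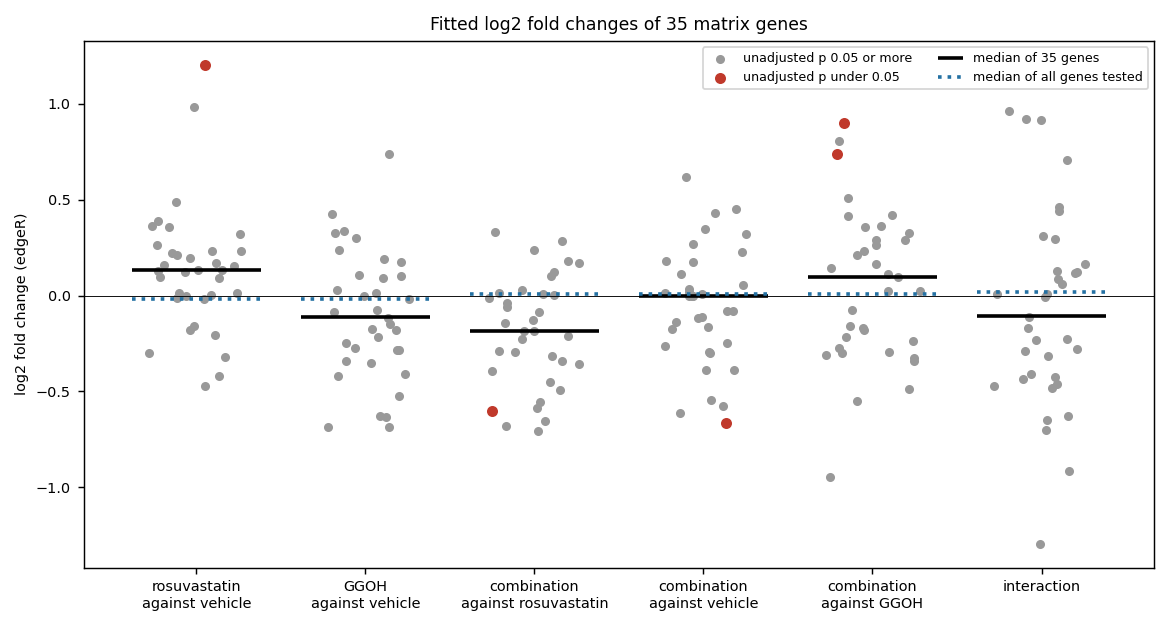
Fitted log2 fold changes (edgeR) of the 35 matrix genes in 6 comparisons; each point is a gene, spread sideways at random, red points have an unadjusted p under 0.05, black lines are the median of the 35 genes and dotted lines that of all genes tested. Points lie on both sides of 0 in each comparison and the 5 red points are Mfap4, Lum, Col3a1, Col5a1 and Col18a1, none of which passed after adjustment.

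Type I collagen, the main fibre protein of scar tissue, is a trimer of the products of Col1a1 (chromosome 11, 94936224 to 94953042, GRCm38) and Col1a2 (chromosome 6, 4504814 to 4541544). Both genes were expressed at a low level. Col1a1 averaged 0.598 TPM over the 20 mice, above 12.5% of the genes tested, and Col1a2 averaged 1.25 TPM, above 24.4% of them. Col1a1 stood at 7.49, 1.12, 4.36, 1.88 and 1.24 CPM in vehicle mice 1 to 5 and at 0.702, 2.38, 4.93, 2.38 and 9.41 CPM in rosuvastatin mice 1 to 5. With GGOH it stood at 0.879, 2.71, 1.58, 2.09 and 6.83 CPM, and with the combination at 0.511, 3.34, 1.82, 2.57 and 4.28 CPM. Vehicle mouse 1 and mouse 5 of each treated group were the highest of their groups, and all groups overlapped. Col1a1 had a log2 fold change of 0.26 ± 0.63 (SE) for rosuvastatin against vehicle and -0.65 ± 0.64 for the combination against rosuvastatin (edgeR adjusted p = 0.991 and 1).

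For Col1a2 the vehicle mice had 11.2, 2.90, 7.82, 5.92 and 2.00 CPM and the rosuvastatin mice 1.90, 4.29, 11.4, 4.30 and 13.2 CPM. The GGOH mice had 2.15, 5.68, 2.91, 5.36 and 9.15 CPM and the combination mice 3.00, 4.87, 5.58, 5.76 and 8.25 CPM. The mouse highest for Col1a1 in each group was also the highest for Col1a2, and no group stood apart. Its log2 fold change was 0.22 ± 0.49 for rosuvastatin against vehicle and -0.25 ± 0.49 for GGOH against vehicle (edgeR adjusted p = 0.985 and 1). The 95% interval of the first of these ran from -0.79 to 1.23 on the log2 scale.

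Col3a1 encodes type III collagen, which is laid down with type I in early scars, and lies on chromosome 1 (45311538 to 45349706, plus strand, GRCm38). At 5.72 TPM on average it was the most abundant fibrillar collagen measured. The 250 bases upstream of its RefSeq start (GRCm38.p6, chr1:45311288-45311537, plus strand) are shown because Col3a1 was the only matched matrix gene with the letters TATAAA in that upstream stretch, marked in capitals, 117 bases before the start.
Col3a1: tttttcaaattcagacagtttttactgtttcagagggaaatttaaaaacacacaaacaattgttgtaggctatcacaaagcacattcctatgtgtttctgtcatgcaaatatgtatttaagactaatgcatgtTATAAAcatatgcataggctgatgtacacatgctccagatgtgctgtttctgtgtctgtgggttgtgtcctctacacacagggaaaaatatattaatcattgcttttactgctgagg
RefSeq promoter windows, from 250 bases before to 50 bases after the start, were at hand for 22 of the 35 genes. Only the 250 bases before the start were searched for letters. In them TATAAA, read on both strands (TTTATA on the other), was in 1 of the 22 genes and in 13% of all 27025 promoters.

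Col3a1 stood at 32.3, 32.2, 20.1, 26.3 and 19.6 CPM in vehicle mice and at 12.3, 15.6, 24.7, 16.7 and 34.97 CPM in rosuvastatin mice. It stood at 18.3, 19.9, 15.4, 38.5 and 28.4 CPM in GGOH mice and at 9.08, 14.1, 12.3, 18.8 and 27.8 CPM in combination mice. Combination mice 1 to 4 were below all 5 vehicle mice, and combination mouse 5 lay among them. Against vehicle, the log2 fold change with the combination was -0.66 ± 0.31, with an unadjusted p of 0.0458 and an edgeR adjusted p of 0.817. In TPM the means of the same groups were close, at 5.80 ± 4.16 TPM (SD, n = 5) with the combination and 5.87 ± 2.95 TPM with vehicle, and limma on log2(TPM + 1) gave -0.11 with an unadjusted p of 0.778. The deposited counts per unit of TPM of Col3a1 varied 2.26-fold between mice and were lowest in combination mice 3, 5 and 2, so counts and TPM gave different fold changes for this gene. Its exons overlap those of Gm47302 on the same strand. With combination mice 2 and 3 and vehicle mouse 1 left out, the difference in counts was -0.39 with an unadjusted p of 0.318.

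Type V collagen, made from Col5a1 and Col5a2, starts the assembly of type I fibres and sets their diameter. Col5a1 (chromosome 2, 27886425 to 28039514) stood at 4.67, 1.31, 5.67, 3.10 and 2.39 CPM with vehicle and at 1.26, 4.83, 2.78, 3.72 and 4.59 CPM with rosuvastatin. The values were 1.37, 2.61, 2.15, 1.35 and 3.62 CPM with GGOH and 2.69, 5.91, 7.72, 2.32 and 2.62 CPM with the combination. Combination mice 2 and 3, the libraries with the high mitochondrial share, were above all 5 GGOH mice, and the other 3 lay within the GGOH range. The log2 fold change of the combination against GGOH was 0.90 ± 0.43 (unadjusted p = 0.0462, edgeR adjusted p = 0.355). It was 0.59 (unadjusted p = 0.176) without combination mouse 3 and 0.18 (unadjusted p = 0.692) without combination mice 2 and 3 and vehicle mouse 1. On log2(TPM + 1) the limma difference was 0.22 with an unadjusted p of 0.275, and counts per unit of TPM of Col5a1 varied 3.02-fold between mice. Exons of 2 genes on the opposite strand overlap Col5a1, and their reads cannot be told apart without strand. Col5a2 averaged 0.314 TPM, between 0.0778 and 0.706 TPM in single mice, and had no comparison past the unadjusted threshold.

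Among the network collagens, Col18a1 was by far the most abundant. It encodes type XVIII collagen, a basement membrane component whose end fragment is endostatin, and hepatocytes are a known source of it. It lies on chromosome 10 (77052178 to 77166548, minus strand) and averaged 47.7 TPM, above 88.6% of the genes tested. Vehicle mice had 471, 140, 310, 139 and 121 CPM and rosuvastatin mice 135, 238, 252, 220 and 198 CPM. GGOH mice had 107, 150, 145, 137 and 197 CPM and combination mice 191, 331, 365, 166 and 177 CPM. Combination mice 2 and 3 were above every GGOH mouse, and the other 3 lay among them. Col18a1 had a log2 fold change of 0.74 ± 0.33 for the combination against GGOH (unadjusted p = 0.0372, edgeR adjusted p = 0.348) and -0.68 ± 0.33 for GGOH against vehicle (unadjusted p = 0.0523, edgeR adjusted p = 1). The first of these was 0.27 with an unadjusted p of 0.331 without combination mice 2 and 3 and vehicle mouse 1.

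Col4a1 and Col4a2 encode the chains of type IV collagen, the sheet-forming collagen of basement membranes, and are read in opposite directions from neighbouring starts on chromosome 8. In RefSeq their starts lie 21 bases apart, and the stretch from the Col4a2 start to the Col4a1 start (GRCm38.p6, chr8:11312805-11312826, plus strand) is shown because the pair shares it and tracked closely across mice. Capitals mark the letters GGGCGG.
Col4a1 and Col4a2 starts: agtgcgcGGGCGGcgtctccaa
The gene models overlap by these 22 bases. Col4a1 averaged 4.06 TPM and Col4a2 0.904 TPM, and the ratio of their TPM had a median of 4.11, from 2.98 to 9.93 in single mice. Col4a1 was highest in vehicle mouse 1 at 12.8 TPM and lowest in vehicle mouse 5 at 1.04 TPM, so the extremes of all 20 mice were both vehicle mice.

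The other network and fibril-associated collagens were lower or steadier. Col6a1, Col6a2 and Col6a3, whose products join into the microfibrils of type VI collagen around cells, averaged 1.43, 0.718 and 1.35 TPM. Col14a1, which decorates fibres, averaged 6.27 TPM and had the smallest within-group SD of the collagens, 0.366 on the log2 CPM scale. Col15a1, a relative of Col18a1 in vessel basement membranes, averaged 0.978 TPM. None of these 5 genes was past an unadjusted p of 0.05 in any comparison. Counts per unit of TPM varied 5.83-fold for Col6a3 and 3.25-fold for Col15a1, so their differences depend on the table used. Over the 33 matrix genes with enough counts this ratio varied more than 2-fold for 10 (30.3%), against 17.8% of all genes.

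Fn1, encoding fibronectin, was the most abundant matrix gene, at 71.2 TPM on average and above 91.5% of the genes tested. It lies on chromosome 1 (71585520 to 71653200, minus strand). Vehicle mice had 625, 362, 451, 267 and 216 CPM and rosuvastatin mice 156, 332, 229, 354 and 313 CPM. GGOH mice had 262, 284, 238, 256 and 295 CPM and combination mice 263, 410, 418, 226 and 252 CPM. The GGOH mice were the closest together of the groups, and vehicle mouse 1 was the highest of all 20. For Fn1 the log2 fold change was -0.47 ± 0.27 for rosuvastatin and -0.52 ± 0.27 for GGOH, each against vehicle (unadjusted p = 0.0893 and 0.0619, edgeR adjusted p = 0.973 and 1). For the interaction, the change with rosuvastatin in the presence of GGOH minus that in its absence, it was 0.71 ± 0.38 (edgeR adjusted p = 0.999).

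Of the other adhesive proteins, Sparc, a collagen-binding glycoprotein, averaged 30.45 TPM, and Postn (periostin), a protein of remodelling tissue, averaged 4.40 TPM. Sparc and Postn had the smallest loadings on the shared pattern described below. Lamb1 and Lamc1, chains of the basement membrane laminins, averaged 0.693 and 1.08 TPM. Thbs1, which encodes thrombospondin and can activate latent TGF-beta, averaged 0.174 TPM and had an estimated count of 0 in its lowest mouse and 44 in its highest. None of these 5 genes was past an unadjusted p of 0.05 in any comparison.

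Among the small proteoglycans, Bgn (biglycan, chromosome X, 73483602 to 73495933, plus strand) averaged 30.5 TPM. The vehicle mice had 126, 30.1, 90.6, 44.7 and 23.0 CPM and the rosuvastatin mice 50.5, 62.8, 96.9, 63.0 and 97.4 CPM. Under GGOH the values were 21.5, 56.5, 40.5, 38.8 and 89.3 CPM, and under the combination 55.4, 71.6, 90.3, 46.9 and 53.0 CPM. The vehicle mice were spread the most widely, with mouse 1 above and mouse 5 near the bottom of all other mice. Its log2 fold change was 0.23 ± 0.39 for rosuvastatin against vehicle and 0.36 ± 0.40 for the combination against GGOH (edgeR adjusted p = 0.974 and 0.638).

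Lum encodes lumican, a proteoglycan that spaces collagen fibres (chromosome 10, 97565128 to 97572703, plus strand), and averaged 5.37 TPM. It stood at 11.8, 13.8, 12.3, 13.8 and 10.2 CPM with vehicle and at 12.2, 10.8, 21.0, 9.87 and 17.8 CPM with rosuvastatin. It stood at 12.5, 10.8, 8.91, 18.2 and 16.1 CPM with GGOH and at 9.46, 5.96, 4.72, 11.6 and 15.3 CPM with the combination. Combination mice 1, 2 and 3 were below all rosuvastatin mice, and combination mice 4 and 5 lay among them. The log2 fold change of the combination against rosuvastatin was -0.60 ± 0.28 (unadjusted p = 0.0418, edgeR adjusted p = 1). It was -0.45 (unadjusted p = 0.114) without combination mouse 3 and -0.24 (unadjusted p = 0.362) without combination mice 2 and 3 and vehicle mouse 1. With 1 library left out in turn, this Lum value ran from -0.867 to -0.428. Without rosuvastatin mouse 3, the highest for Lum, the smallest unadjusted edgeR p of any matrix gene in this comparison was 0.149. The mitochondrial share was highest in combination mice 2 and 3, and its part in the difference was not tested. Dpt encodes dermatopontin, a small matrix protein that binds the proteoglycan decorin. It was chosen after its values were seen, and it was the member closest to Lum across mice. It stood at 6.52, 6.67, 1.29, 9.33 and 23.6 CPM in the combination mice, which held both a very low value in mouse 3 and a high value in mouse 5. Across the other 3 groups Dpt lay between 7.26 and 36.9 CPM.

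The elastic fibre proteins were scarce. Fbn1, the fibrillin of microfibrils, averaged 0.244 TPM, Eln, the elastin gene, 0.518 TPM, and Fbln5, which links elastin to cells, 1.80 TPM. Mfap4, a microfibril-associated glycoprotein gene on chromosome 11 (61485431 to 61488900, plus strand), averaged 0.554 TPM. Mfap4 stood at 0.572, 0.187, 0.782, 0.282 and 0.859 CPM with vehicle and at 0.912, 0.749, 2.67, 0.755 and 1.22 CPM with rosuvastatin. With GGOH it was at 0.0976, 0.922, 0.569, 1.07 and 0.654 CPM and with the combination at 0.639, 0.930, 0.215, 0.501 and 1.76 CPM. Rosuvastatin mice 1, 3 and 5 were above all vehicle mice, while mice 2 and 4 overlapped them. Rosuvastatin against vehicle gave a log2 fold change of 1.20 ± 0.54 (95% interval 0.08 to 2.33, unadjusted p = 0.0368, edgeR adjusted p = 0.973). It was 1.23 (unadjusted p = 0.0484) without combination mice 2 and 3 and vehicle mouse 1, and 0.75 (unadjusted p = 0.18) without rosuvastatin mouse 3. The estimated count of Mfap4 was between 1 and 47 per library, and its exons overlap those of Mapk7 on the opposite strand, so part of these reads may belong to Mapk7.

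The lysyl oxidase genes, whose products crosslink collagen and elastin, were also near the low end: Lox averaged 0.107 TPM, Loxl1 0.403 TPM and Loxl2 0.550 TPM. The estimated count of Lox was between 1 and 17 per library. All 3 had a log2 fold change above 0 for rosuvastatin against vehicle, from 0.13 to 0.98, and below 0 for the combination against rosuvastatin, from -0.68 to -0.18. These comparisons share the rosuvastatin mice, and none of the 3 genes was past an unadjusted p of 0.05 in either.

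The proteases were Mmp14, the membrane-bound metalloproteinase that activates pro-MMP2, at 5.24 TPM, and Mmp2, a gelatinase, at 0.601 TPM. Mmp14 was highest in vehicle mouse 1 at 14.51 TPM and lowest in vehicle mouse 5 at 1.504 TPM. The inhibitors Timp2 and Timp3 averaged 4.54 and 4.60 TPM, and Timp1, a TIMP that rises in injured liver, averaged 1.18 TPM. None of these 5 genes was past an unadjusted p of 0.05 in any comparison. Timp1 (chromosome X, 20870166 to 20874735, plus strand) stood at 1.62, 0.467, 0.326, 1.88 and 0.191 CPM with vehicle and at 0.491, 0.408, 1.82, 0.174 and 2.05 CPM with rosuvastatin. It was at 0.683, 1.18, 0.569, 0.395 and 0.892 CPM with GGOH and at 0.511, 0.383, 0.107, 1.19 and 0.754 CPM with the combination. In both the vehicle and the rosuvastatin group 2 mice were high and 3 were low. Timp1 had a log2 fold change of 0.13 ± 0.63 for rosuvastatin against vehicle and -0.58 ± 0.66 for the combination against vehicle (edgeR adjusted p = 0.997 and 0.839). The 95% interval of the first of these ran from -1.19 to 1.45. The estimated count of Timp1 was between 1 and 37 per library.

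Tgfb1, the growth factor at the head of the fibrogenic pathway, lies on chromosome 7 (25687002 to 25705077, plus strand) and averaged 2.70 TPM. Vehicle mice had 6.92, 3.08, 6.51, 2.07 and 3.34 CPM and rosuvastatin mice 4.70, 5.04, 6.18, 5.81 and 6.81 CPM. GGOH mice had 3.32, 7.12, 3.35, 3.05 and 4.22 CPM and combination mice 6.20, 6.84, 5.36, 5.63 and 4.28 CPM. The 10 mice given rosuvastatin, alone or with GGOH, lay between 4.28 and 6.84 CPM, while 3 vehicle mice and 4 GGOH mice were below that range. Vehicle mouse 1 and GGOH mouse 2 were above it, at 6.92 and 7.12 CPM. Tgfb1 had a log2 fold change of 0.36 ± 0.29 for rosuvastatin against vehicle and 0.42 ± 0.29 for the combination against GGOH (unadjusted p = 0.225 and 0.159, edgeR adjusted p = 0.973 and 0.458), and neither was past the threshold.

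The matrix genes moved together from mouse to mouse, irrespective of group. The first principal component of their log2 CPM (prior count of 2) held 52.1% of their variance, all 35 genes had a positive loading on it, and 4.4% of its variance lay between groups. No such component was computed over all genes tested, so the shared movement is not shown to be particular to matrix genes. Scores were highest in rosuvastatin mouse 5 (4.73) and vehicle mouse 1 (4.61), and lowest in vehicle mouse 5 (-4.28) and GGOH mouse 1 (-4.08). Each group held mice on both sides of 0. Scores ran from -4.28 to 4.61 with vehicle and from -3.66 to 4.73 with rosuvastatin. They ran from -4.08 to 3.12 with GGOH and from -3.42 to 2.21 with the combination. Col1a1, Loxl1, Mmp2 and Col1a2 had the largest loadings (0.352, 0.327, 0.278 and 0.272), and Sparc and Postn had the smallest (0.006 and 0.005).

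The second component held 18.4% of the variance, with 23.3% of it between groups. Combination mouse 3 had a score of -4.92 and combination mouse 2 a score of -2.09, the lowest of all mice. Dpt, Timp1, Lum and Col3a1 had the largest positive loadings (0.525, 0.315, 0.268 and 0.233), and Col5a1, Col18a1 and Col4a2 the most negative (-0.283, -0.208 and -0.192). These are the libraries in which mitochondrial transcripts took 27.9% and 29.2% of the counts, and combination mouse 3 had the smallest total. The part of these library differences in the component was not tested.

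**Figure D3:**
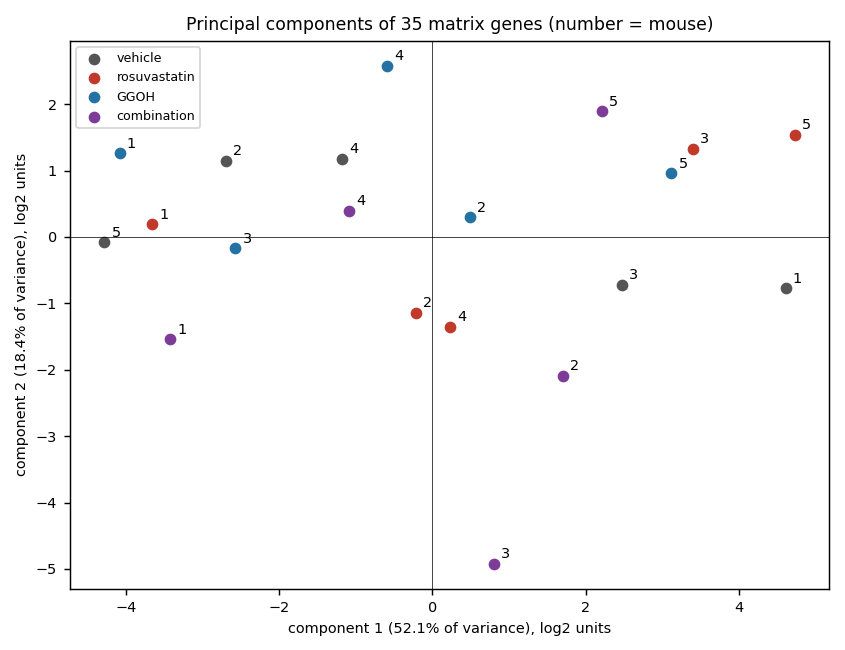
Scores of the 20 mice on the first and second principal component of the 35 matrix genes, in log2 units; each point is a mouse with its number, coloured by group. Groups are mixed along the horizontal axis, and combination mouse 3 lies lowest on the vertical axis at -4.92.

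**Figure D4:**
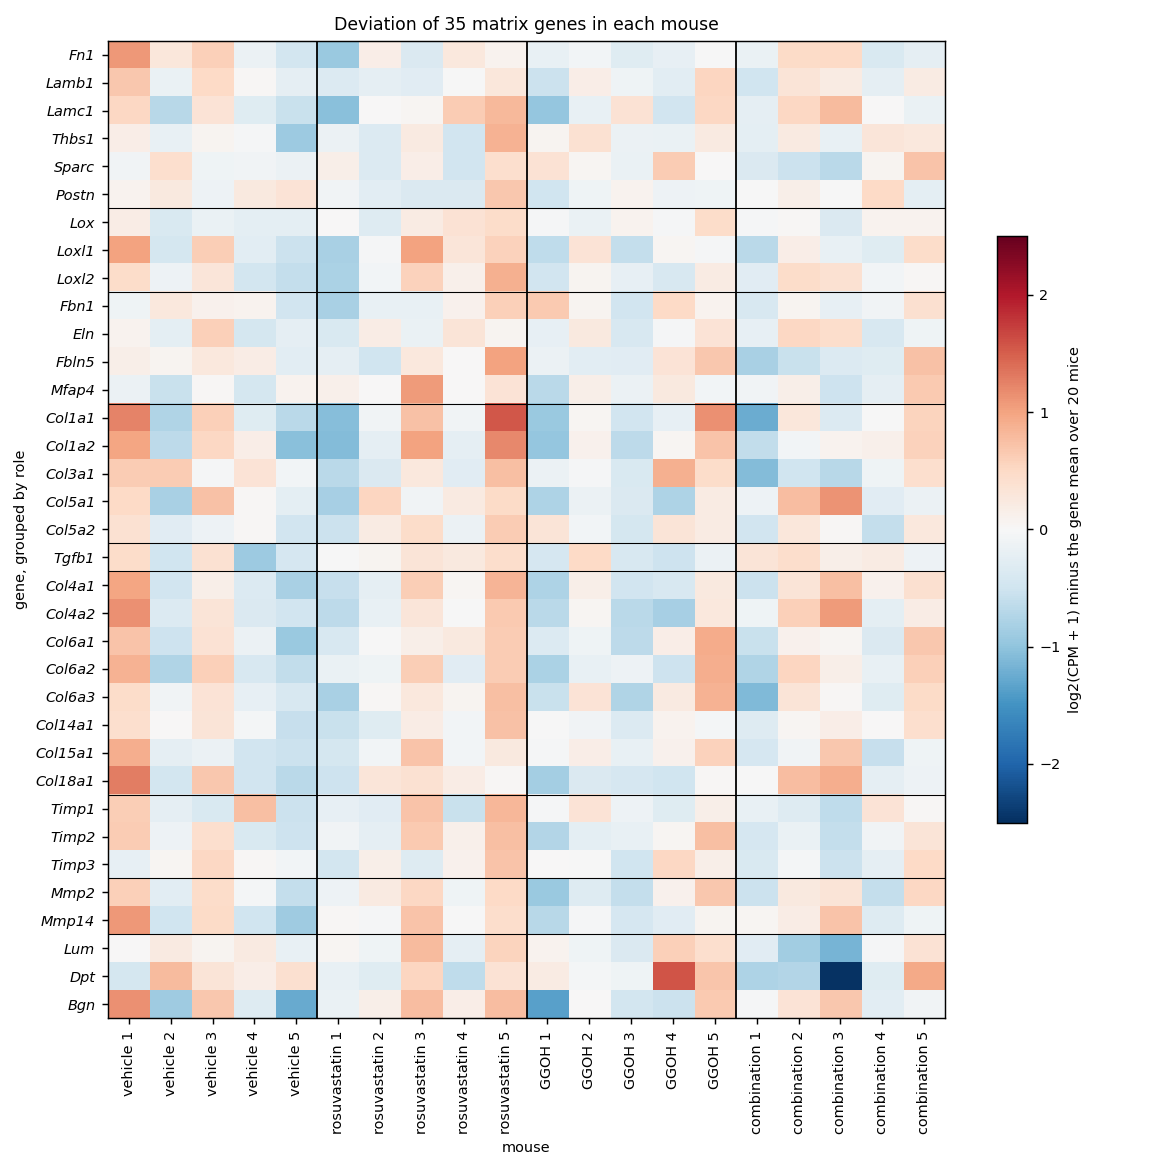
Deviation of log2(CPM + 1) from the gene's mean over 20 mice for each matrix gene (rows, grouped by role) and mouse (columns, grouped by treatment). Columns of mostly red or mostly blue cells occur in every group, with vehicle mouse 1 and rosuvastatin mouse 5 among the reddest and vehicle mouse 5 and GGOH mouse 1 among the bluest.

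Markers of matrix-producing and other cell types were compared with this pattern as a description. The summed TPM of 8 portal fibroblast markers, of which 4 passed the filter, was highest in rosuvastatin mouse 3 (24.0), vehicle mouse 1 (21.7) and combination mouse 5 (17.2). It was lowest in vehicle mouse 5 (4.33) and combination mouse 1 (4.92). For 7 mesothelial markers, of which 5 passed, the highest sums were 6.69 in vehicle mouse 1, 6.26 in combination mouse 5 and 6.12 in rosuvastatin mouse 5, and the lowest was 0.493 in rosuvastatin mouse 2. Vehicle mouse 1 and rosuvastatin mice 5 and 3 had the highest scores on the first component (4.61, 4.73 and 3.40). Vehicle mouse 1 was among the highest for both lists. Rosuvastatin mouse 5 had 14.5 TPM of portal fibroblast markers and rosuvastatin mouse 3 had 4.97 TPM of mesothelial markers, each below combination mouse 5. These 3 mice were the 3 highest for the summed TPM of 6 cholangiocyte markers (5.03, 3.80 and 6.68), of which 4 passed the filter. Hepatocyte markers summed highest in vehicle mouse 1 and rosuvastatin mouse 3 (76000 and 59800 TPM), and lipid-associated macrophage markers in rosuvastatin mice 3 and 5 (302 and 189 TPM). The same 3 mice had the largest TMM factors (1.251, 1.223 and 1.169), and vehicle mouse 5, with the lowest score, had the smallest (0.761). Krt19, 1 of the 7 mesothelial markers, is also a marker of bile duct cells. Vascular endothelial markers were highest in rosuvastatin mouse 5 (28.6 TPM) and lowest in vehicle mouse 5 (12.7 TPM). Sinusoidal endothelial markers had the same 2 extremes, at 158 and 92.1 TPM. Other lists went otherwise: neutrophil markers were lowest of all mice in vehicle mouse 1 (7.5 TPM). Kupffer cell markers were highest in GGOH mouse 2 (269 TPM) and lowest in GGOH mouse 5 (63.5 TPM). Sums of 12 quiescent stellate cell markers ran from 144 to 280 TPM with vehicle, 167 to 339 with rosuvastatin, 207 to 339 with GGOH and 139 to 308 with the combination. For 8 myofibroblast and smooth muscle markers the ranges were 21.7 to 38.3, 18.2 to 30.7, 16 to 27.3 and 17.1 to 27.5 TPM in the same order. For the stellate list, rosuvastatin mouse 3 and GGOH mouse 4 (score -0.585) both had 339 TPM, and vehicle mouse 5 had 144 TPM. For the myofibroblast list, vehicle mouse 3 had 38.3 TPM, vehicle mouse 5 had 28 TPM and rosuvastatin mouse 3 had 20.4 TPM. No marker of these lists was at 0 in all mice, and the part of cell composition or of library scaling in the matrix pattern was not tested.

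Genes whose products assemble or act together were compared across the 20 mice on log2(TPM + 1), as 10 pairs with permutation p-values adjusted by Benjamini and Hochberg over the pairs. Col1a1 and Col1a2 had a Pearson r of 0.935 (adjusted permutation p = 2.5e-05) and a Spearman rho of 0.901 (adjusted p = 5e-05). The raw permutation p of this pair was 1e-05, the smallest that 100000 permutations can give. Without the 2 mice farthest from the median of Col1a1, r was 0.899, and within groups, after removing the group means, it was 0.936. The ratio of Col1a1 to Col1a2 in TPM nonetheless ranged from 0.153 to 0.811 between mice, with a median of 0.413.

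Col6a1 and Col6a2 had an r of 0.909 (rho 0.844), Col4a1 and Col4a2 0.902 (rho 0.850) and Mmp2 and Mmp14 0.818 (rho 0.851), with adjusted permutation p-values of 2.5e-05 for r in all 3. Within groups these were 0.915, 0.931 and 0.813, and without the 2 farthest mice 0.881, 0.856 and 0.783. Col1a1 and Col3a1 had an r of 0.773 (rho 0.755, adjusted permutation p = 6e-05) and Lamb1 and Lamc1 0.722 (rho 0.700, adjusted permutation p = 0.000467). For Col1a1 and Timp1, r was 0.697 (rho 0.487, adjusted permutation p = 0.00141 and 0.0315) and 0.443 without the 2 farthest mice, so much of that relation rests on them. The remaining pairs were Col6a1 and Col6a3 (r = 0.653, rho 0.626), Col5a1 and Col5a2 (r = 0.632, rho 0.544) and Mmp2 and Timp2 (r = 0.612, rho 0.550), with adjusted permutation p-values for r of 0.0027, 0.00283 and 0.00459. On the CPM scale the relation of Col5a1 and Col5a2 was weaker, at 0.339 with an adjusted permutation p of 0.144. All 10 relations come from the same libraries and share the pattern above, so they are not independent of each other. The permutation p-values test against no relation at all. With group means removed, 536 of all 595 pairs of matrix genes were positive on log2 CPM (median r 0.511). A small p therefore does not set partner genes apart from other pairs.

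**Figure D5:**
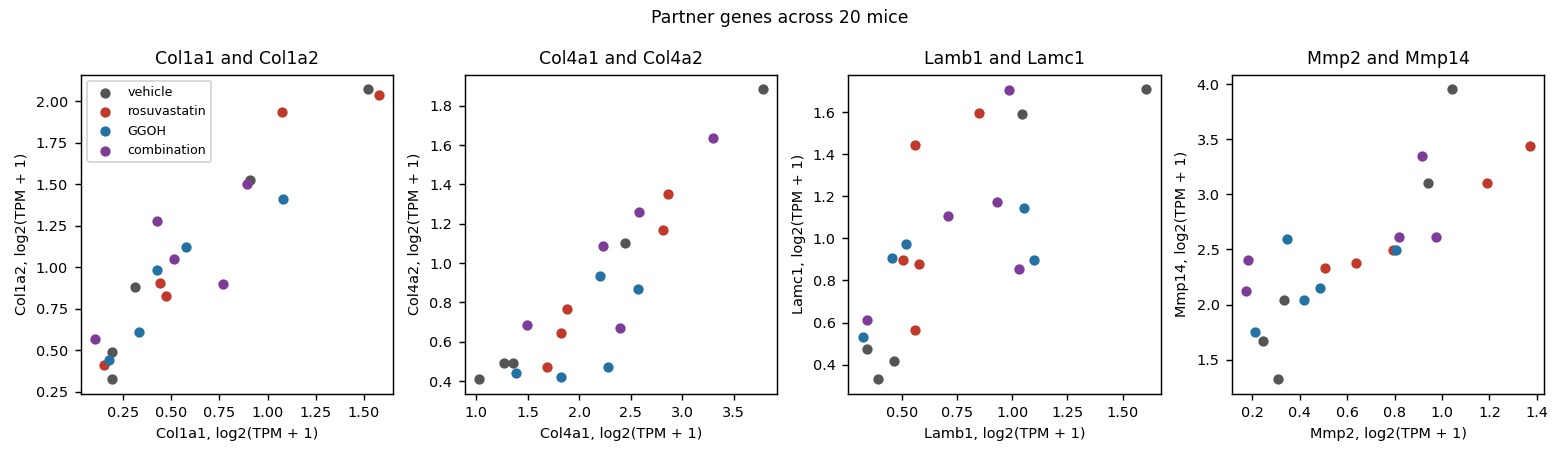
Levels of 4 pairs of partner genes in 20 mice, each point a mouse coloured by group, with log2(TPM + 1) of the first gene on the horizontal and of the second on the vertical axis. All 4 pairs rise together across mice of every group, most tightly Col1a1 and Col1a2 (r = 0.935) and least tightly Lamb1 and Lamc1 (r = 0.722).

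Over all 595 pairs of matrix genes, with group means removed, the median r was 0.511, and 536 pairs were positive. These values describe 20 libraries that share depth and scaling and carry no test. Pairs of other genes were not computed beside them. Bgn and Mmp14 were among the closest, with an r of 0.928, next to Col1a1 with Col1a2 at 0.933 and Col4a1 with Col4a2 at 0.918. Col6a2 with Col1a1 at 0.901 and Col18a1 with Mmp14 at 0.897, also on different chromosomes, were closer than Lum with Dpt at 0.862. The upstream sequences of Bgn and Mmp14 are shown because these genes lie on different chromosomes and tracked each other nearly as closely as the chains of type I collagen. The 250 bases before the RefSeq start are given (GRCm38.p6, both plus strand), at chrX:73483351-73483600 for Bgn and chr14:54431348-54431597 for Mmp14. Capitals mark GGGCGG or its reverse complement CCGCCC, and CCAAT or its reverse complement ATTGG.
Bgn: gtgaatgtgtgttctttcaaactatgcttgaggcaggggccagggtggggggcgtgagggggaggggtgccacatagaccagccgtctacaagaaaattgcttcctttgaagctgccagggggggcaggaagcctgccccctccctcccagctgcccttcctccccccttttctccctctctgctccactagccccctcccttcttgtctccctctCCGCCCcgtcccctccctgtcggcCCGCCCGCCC
Mmp14: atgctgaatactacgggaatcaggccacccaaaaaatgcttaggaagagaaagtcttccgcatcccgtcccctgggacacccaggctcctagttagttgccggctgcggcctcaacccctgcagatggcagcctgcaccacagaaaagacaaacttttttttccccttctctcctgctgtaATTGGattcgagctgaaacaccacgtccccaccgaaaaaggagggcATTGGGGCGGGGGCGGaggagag
Bgn has CCGCCC at 34, 10 and 6 bases before the start, the last 2 of which overlap, and Mmp14 has GGGCGG at 19 and 13 bases and ATTGG at 69 and 23 bases before it. The ATTGG nearer the Mmp14 start overlaps the GGGCGG beside it by its last letter. In the 250 bases before the start, GGGCGG on either strand was in 14 of the 22 matrix genes with a promoter window and in 32.9% of all 27025 promoters. CCAAT on either strand was in 9 of 22 and in 34.5% of all promoters over the same bases.

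Beyond the 35 genes, 161 further genes of the fibrosis pathway, in 6 lists, were followed, and 138 of them passed the low-count filter. None of the 138 passed an adjusted p of 0.05 in any comparison (edgeR, Benjamini-Hochberg). At an unadjusted p under 0.05, 3 were higher and 0 lower with rosuvastatin against vehicle, which is 2.17% of the 138 against 3.69% of all genes. With GGOH against vehicle 4 were higher and 3 lower (5.07% against 2.86%), and with the combination against rosuvastatin 2 were higher and 4 lower (4.35% against 1.69%). With the combination, 5 were higher and 9 lower against vehicle (10.1% against 5.5%), and 8 were higher and 9 lower against GGOH (12.3% against 14%). For the interaction 2 were above and 4 below 0 (4.35% against 2.89%). These shares are a description and carry no test. For the combination against GGOH, the share of all genes was 5.6% without combination mouse 3. It was 3.29% without combination mice 2 and 3 and vehicle mouse 1. Unless stated, the genes named below were fitted with all 20 libraries. The median log2 fold change of the 138 genes was 0.09, -0.03, -0.11, 0.02 and 0.01 in the 5 pairwise comparisons, in that order.

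In the TGF-beta list (26 of 27 tested), Tgfb3, another TGF-beta ligand, had the smallest p, at 0.311 ± 0.153 TPM (SD, n = 5) with rosuvastatin and 0.104 ± 0.0679 TPM with vehicle. Its log2 fold change was 1.40 ± 0.47 (edgeR unadjusted p = 0.00755, adjusted p = 0.973). Itgav, an integrin chain that releases active TGF-beta, had a log2 fold change of -0.51 ± 0.19 with the combination against vehicle, and the receptor gene Tgfbr1 had -0.37 ± 0.15 with the combination against GGOH, which was -0.23 (unadjusted p = 0.125) without GGOH mouse 4. In the list of collagen processing enzymes (20 of 24 tested), the procollagen protease gene Adamts14 had 1.19 ± 0.52 with the combination against vehicle. The prolyl hydroxylase gene P3h2 had -1.04 ± 0.47 with GGOH against vehicle, and the lysyl hydroxylase gene Plod1 had 0.35 ± 0.17 with the combination against GGOH. Adjusted p-values of these 6 genes were 0.348 or more.

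Among other matrix components (38 of 46 tested), Spp1 (osteopontin, a matrix protein also made by macrophages) was at 22.7 ± 9.38 TPM with the combination and 63.9 ± 58.8 TPM with rosuvastatin. Its log2 fold change was -1.29 ± 0.39 (edgeR unadjusted p = 0.00367, adjusted p = 1), and -0.77 (unadjusted p = 0.0353) without rosuvastatin mouse 3. It is also among the macrophage markers followed here. The summed level of those 7 lipid-associated macrophage markers ran from 57.0 to 302 TPM with rosuvastatin and from 51.0 to 164 TPM with the combination. Col5a3, a further type V collagen chain, was at 4.31 ± 3.57 TPM with the combination and 1.60 ± 0.767 TPM with GGOH, a log2 fold change of 1.36 ± 0.42 (edgeR unadjusted p = 0.00424, adjusted p = 0.348). That fold change ran from 0.912 to 1.66 with 1 library left out in turn. Matn2, encoding a matrilin, had -0.76 ± 0.29 with the combination against vehicle. Among other proteases and inhibitors (23 of 28 tested), Mmp11 had 0.93 ± 0.36 with the combination against vehicle. The cathepsin gene Ctss had -0.60 ± 0.24 and the metalloproteinase gene Adamts7 1.21 ± 0.51, both with the combination against GGOH.

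Among matrix receptors (16 of 18 tested), Itga5, the fibronectin receptor chain, had a log2 fold change of 0.90 ± 0.30 with the combination against GGOH, and its partner Itgb1 had -0.33 ± 0.12 with the combination against vehicle. Cd36, a thrombospondin receptor and fatty acid transporter, had 0.40 ± 0.21 with GGOH against vehicle, with an unadjusted p of 0.0666. In the list of fibrogenic growth factors and receptors (15 of 18 tested), Il13ra1, a chain of the receptor for interleukin 13, had -0.85 ± 0.28 and the growth factor gene Pdgfd had -0.93 ± 0.31, both with the combination against GGOH. With 1 library left out in turn, the value for that comparison ran from 0.633 to 1.01 for Itga5. It ran from -1.07 to -0.63 for Il13ra1 and from -1.14 to -0.733 for Pdgfd. The chemokine gene Ccl2 was at 7.76 ± 4.72 TPM with GGOH and 2.75 ± 0.883 TPM with vehicle, a log2 fold change of 1.31 ± 0.44 (edgeR unadjusted p = 0.00669, adjusted p = 1).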

How the data were processed

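Per the labels' protocols, poly(A) RNA from 20 mouse livers was made into TruSeq libraries and sequenced with paired reads. The submitters' processing notes name kallisto 0.44.0, bcl2fastq 2.19, DESeq2 and GRCm38, and the transcript annotation is not given in the sources used here. The authors deposited estimated counts per gene, as whole numbers, and TPM, which they scaled for transcript length and depth. An entry without a gene name (0.00801 to 0.0157% of counts) was left out.

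Counts were tested in edgeR 4.0.16 (R 4.3.3) by the quasi-likelihood F test, with TMM factors, filterByExpr by group and a group-means model over 20 libraries, without a replicate block. The Benjamini-Hochberg adjustment covered all 12789 genes. The scripts were tested on simulated data. The value after ± is the SE of a log2 fold change or, where stated, an SD. Alternatives used limma 3.58.1, DESeq2 1.42.0, other filters, size factors and sample sets. The least different replicate libraries gave a chi-square of 37.4 per degree of freedom, so none were duplicates.

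The members, the lists and the tests were chosen with earlier results of these data known. Values in every mouse are given for Col1a1, Col1a2, Col3a1, Timp1, Tgfb1, the 3 other members of highest mean TPM and members with an unadjusted p under 0.05 in a pairwise comparison. Of each pathway list, the 3 genes of smallest p are named. Positions are from GENCODE M21, promoters from RefSeq (GRCm38.p6).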

Additional observations from a re-analysis of the deposited data

Results flagged for a closer look

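A mouse far from the other 4 of its group was looked for in TPM, in 140 sets of 5 mice (35 genes in 4 groups), and 2 were found, where chance would give about 7, or 1 in 20. Lamb1 was at 0.803 TPM in rosuvastatin mouse 5, and the nearest of the other rosuvastatin mice was at 0.494 TPM. That mouse also had the highest score on the first component of the matrix genes. Timp3 was at 7.58 TPM in combination mouse 5, and the nearest of the other combination mice was at 3.96 TPM. Exons of Timp3 overlap those of Syn3 on the opposite strand.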

How the results depend on the processing

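Under all alternatives, including each library left out in turn, 0 matrix genes passed an adjusted p of 0.05 in all 6 comparisons. Counts at an unadjusted p under 0.05 varied. DESeq2 gave 1 for GGOH against vehicle and 4 for the combination against GGOH, where 3.39% and 15.7% of all genes were past the threshold. The fit with no low-count filter also gave 1 and 4 (3.36% and 10.3% of all genes). The stricter filter gave 0 for rosuvastatin against vehicle (3.64%), since Mfap4 did not pass it. Fitting only the groups compared gave 0 for the combination against rosuvastatin (1.47%). On log2(TPM + 1) and on log2(TPM + 0.1), limma gave counts of 0, 0 and 1 for the combination, in turn against rosuvastatin (1.17% and 1.07% of all genes), vehicle (2.71% and 2.98%) and GGOH (6.71% and 6.67%). Sample quality weights gave 5 for rosuvastatin against vehicle (23.9% of all genes), 0 for the combination against rosuvastatin (2.53%), 2 for it against vehicle (22.1%) and 1 for the interaction (2.89%). With combination mice 2 and 3 and vehicle mouse 1 left out, the counts were 4 for rosuvastatin against vehicle (14.6% of all genes), 2 for GGOH against vehicle (2.63%), 0 and 1 for the combination against vehicle and against GGOH (6.18% and 3.29%), and 2 for the interaction (1.69%). The cause of these differences was otherwise not tested.

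With 1 library left out at a time, the count ran from 0 to 4 for rosuvastatin against vehicle, 0 to 2 for GGOH against vehicle, 0 to 4 for the combination against rosuvastatin, 0 to 4 for it against vehicle, 0 to 7 for it against GGOH and 0 to 3 for the interaction. The count of 4 for rosuvastatin against vehicle was without vehicle mouse 1, where 13.6% of all genes were past the threshold. For GGOH against vehicle, the count was 2 without vehicle mouse 1, 4 or 5 (2.48%, 4.29% and 5.67% of all genes). The combination's counts of 7 against GGOH (17.8% of all genes), 4 against rosuvastatin (3.24%) and 4 against vehicle (6.95%) were those without combination mouse 5. So was the count of 3 for the interaction (5.41%). The correlation of Col5a1 with Col5a2 was 0.339 on the CPM scale, the only one of 10 pairs to lose its call, and the level of Col5a2 with GGOH relative to the other groups also moved between TPM and CPM. With replicate number as a block, the count was 0 for rosuvastatin against vehicle (3.18% of all genes) and 1 for the combination against GGOH (11.2%), and it changed no other count. Deviations of same-numbered mice had median correlations between -0.0955 and 0.108, and single pairs ran from -0.465 to 0.507. With 6 pairs per number these values cannot exclude a pairing, and the labels name none. Lox, Timp1, Mfap4 and Mmp2 had as few as 1 estimated count in a library, and Thbs1 as few as 0, which limits their precision.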
